A study of Mus musculus with 8 samples.

Results

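NMuMG is an epithelial cell line from the mouse mammary gland, and the data described here are its 2 arrays of the 8 in the series, 1 of resting cells and 1 of cells stimulated with a mixture of recombinant human TGF-β1 and EGF, each at 3 ng/mL. Both groups had been kept in K-1 medium with insulin and transferrin for 24 h, and stimulation lasted another 24 h in the same medium. The other lines, each with 1 resting and 1 stimulated array under the same protocol, are the mammary line EpH4, labelled as not undergoing the epithelial-mesenchymal transition (EMT), and 2 lines of kidney tubule, mProx and MCT. A gene was described if its log2 level, averaged over both NMuMG arrays, was at least 5.27 (the 40th percentile over the array's probe sets), which left 12192 of the 18193 genes on the array. A level is the deposited Affymetrix signal plus an offset of 10.6, on the log2 scale after quantile normalization across the 8 arrays. A gene is called dim on an array where its level was under 5.27.

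TGF-β1 signals through serine/threonine kinase receptors to SMAD proteins, and EGF through a tyrosine kinase receptor to the ERK cascade. NMuMG cells are a standard model in which TGF-β turns a cobblestone epithelial sheet into spindle-shaped cells with actin stress fibres. In that transition, factors of the Snail and Zeb families repress E-cadherin, while matrix, integrin and contractile genes are induced.

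With 1 array a side there is no replicate error for NMuMG, so sizes are descriptions without a p-value, and a gene is counted as higher or lower from 2-fold on. The only measure of precision within the line is how far probe sets of the same gene differed in their change, a pooled SD of 0.38 on the log2 scale, which ran from 0.47 for genes with a mean level under 7 to 0.29 for those at 9 or more. Median signals of the 8 arrays ran from 41.5 to 59.6, and the NMuMG arrays had 41.8 at rest and 48.5 after stimulation, the opposite order to the other 3 lines. Nothing in the labels says how many cultures an array stands for.

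The labelled epithelial identity was checked against markers. Resting NMuMG cells had high levels of the simple-epithelium keratins Krt8 (11.96) and Krt18 (12.86) and of E-cadherin, Cdh1 (10.69). Epcam, the pan-epithelial adhesion molecule, was dim at 3.90, against 12.35 in EpH4. The claudin genes Cldn3 (4.15) and Cldn7 (5.07) and the basal keratin gene Krt14 (3.64) were dim as well, while EpH4 had 11.92, 11.58 and 10.22. N-cadherin, Cdh2 (12.43), and vimentin, Vim (13.31), the usual mesenchymal counterparts, were already high in resting NMuMG, where EpH4 had 5.38 and 4.02. Of 25 luminal mammary markers with a probe set, 12 passed the filter and 8 were dim on both NMuMG arrays. The rest were dim on either the resting or the stimulated array but not both, and the filter on the mean dropped them. Genes dropped in this way include Ehf (6.6 at rest to 3.55), Muc1 (6.32 to 4.17), Gata3 (5.54 to 3.88) and Esr1 (5.36 to 4.61). Spdef went the other way, from 3.93 to 5.3. Losses or gains of such genes are not counted below. Of 21 leukocyte markers with a probe set, 11 passed the filter, among them Cd14 at 11.09 at rest, and 7 were dim on both NMuMG arrays, among them the pan-leukocyte antigen Ptprc (3.60 and 4.60). Of 19 endothelial markers, 8 passed and 10 were dim on both arrays, among them Pecam1 (3.71 and 3.99).

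Stimulated NMuMG cells had 334 genes at least 2-fold higher (2.74% of 12192) and 222 at least 2-fold lower (1.82%) than resting ones. At least 4-fold, the counts were 35 and 33. The direction split depends on the scaling. Of the 2-fold genes, 60.1% were higher here, 70.2% when each array was only centred on its median, and 85.6% on the signals as deposited, that is with the offset added but no normalization between arrays, where the median gene was 0.35 log2 higher on the stimulated array against 0.04 here. A further probe set of a gene was called readable, and counted here and below, where its brighter NMuMG array reached 5.27. Where a gene had one, all of them moved the same way for 89 of 113 of the higher genes (78.8%) and 53 of 62 of the lower genes (85.5%), against 51.5% of all 6123 genes with another probe set.

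**Figure D1:**
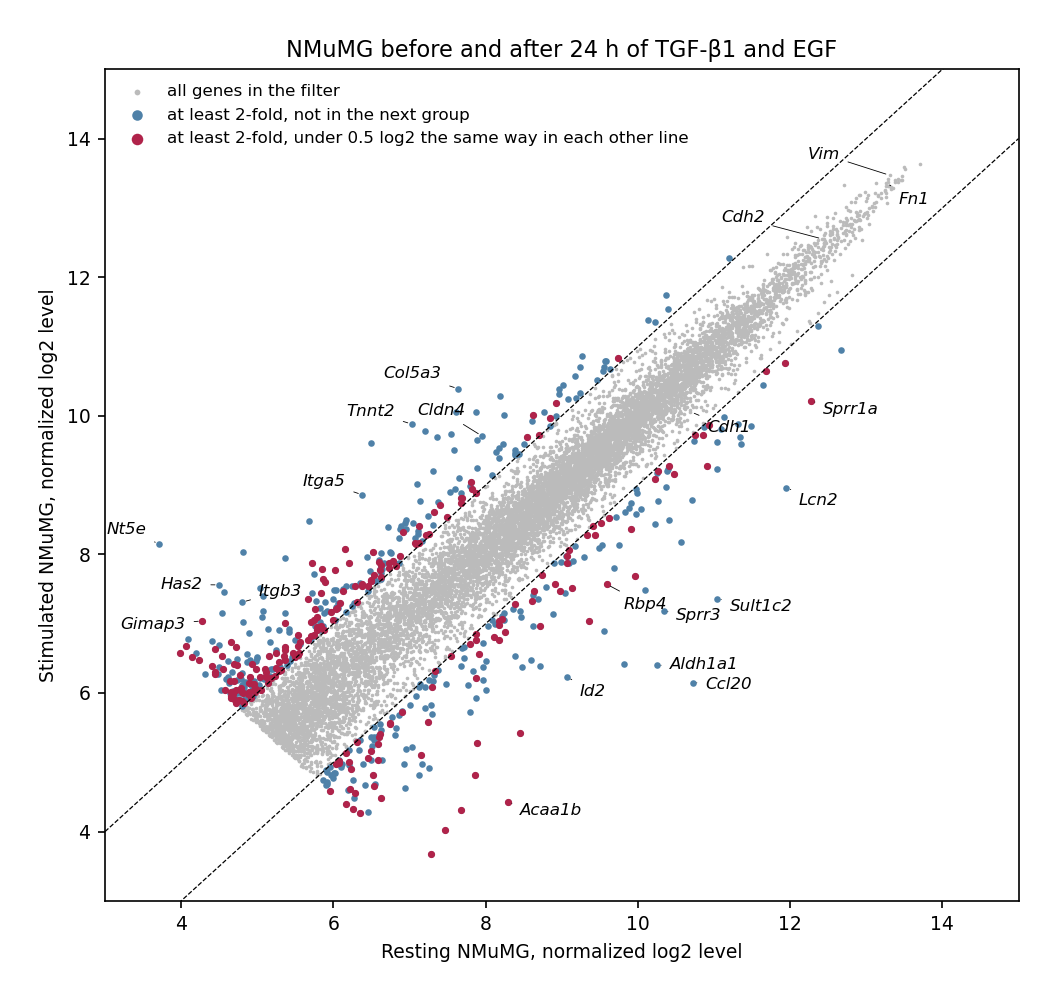
Normalized log2 level of 12192 genes in resting (horizontal) and stimulated (vertical) NMuMG cells, 1 array each, with dashed lines at 2-fold. Ccl20, Acaa1b and Aldh1a1 lie farthest below the lines and Nt5e farthest above, while Vim, Cdh2 and Fn1 lie close to the diagonal.

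The largest decreases in NMuMG were those of Ccl20, Acaa1b, Aldh1a1, Sult1c2 and Sult1a1. Ccl20, a chemokine that draws CCR6-bearing lymphocytes and dendritic cells, went from a level of 10.72 at rest to 6.15, 23.7-fold lower. In MCT it went from 8.81 to 6.68, and in EpH4 (4.09 to 4.36) and mProx (3.99 to 4.08) it was dim on both arrays, so that only MCT could show a decrease. Lcn2, an iron-siderophore binding lipocalin of innate defence, went from 11.95 to 8.96 (7.96-fold lower), with a log2 change of -3.19 in MCT and of -0.61 in EpH4.

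Aldh1a1, which oxidises retinaldehyde to retinoic acid, went from 10.25 to 6.40, 14.4-fold lower. Its close relative Aldh1a7, with no coding gene between the pair on the chromosome, went from 7.47 to 4.02. Both were dim at rest in EpH4, mProx and MCT. Rbp4, the plasma retinol carrier, went from 9.59 to 7.57 (4.06-fold lower), and its resting levels in EpH4, mProx and MCT were 5.41, 5.18 and 5.45. Cyp26b1, which breaks down retinoic acid, went from 9.07 to 7.97, and in MCT from 4.74 to 6.54. Cyp26b1 was named after its values were seen, and its NMuMG change was under 2-fold on the signals as deposited and after median centring.

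The sulfotransferase gene Sult1c2 went from 11.04 to 7.36, 12.9-fold lower, and was also lower in mProx (log2 change -4.13), MCT (-2.72) and EpH4 (-1.48). A second sulfotransferase gene, Sult1a1, went from 7.28 to 3.67 and was dim on both arrays of each other line. Acaa1b, a peroxisomal thiolase of β-oxidation, went from 8.29 to 4.42 (14.6-fold lower). Vnn1, a pantetheinase, went from 9.82 to 6.42, and a further probe set of the gene moved the same way. Plin4, a lipid droplet coat protein, went from 10.10 to 7.49 (6.12-fold lower).

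The small proline-rich proteins are cross-linked into the cornified envelope of stratified epithelia and are also induced in stressed simple epithelia. Sprr1a went from 12.27 to 10.21 (4.17-fold lower), whereas in mProx it went from 6.45 to 8.24, in MCT from 8.96 to 8.48 and in EpH4 from 6.07 to 6.06. Sprr3 went from 10.34 to 7.18 (8.94-fold lower) and Sprr1b from 9.96 to 7.69 (4.81-fold lower), and both were dim at rest in the other 3 lines. Sprr2k, named after its values were seen, went from 9.98 to 8.94. Its change of 2.06-fold was under 2-fold on the signals as deposited and after median centring. Sprr1a, Sprr3, Sprr1b and Sprr2k follow each other on chromosome 3 with no other coding gene between them. As close relatives they may share probe signal.

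The other large increases and decreases are shown in the plot of 14 genes each way. Scn3a, a neuronal sodium channel subunit, went from 8.45 to 5.42 and was at 3.45 to 3.59 on the 6 arrays of the other lines. A second probe set of the gene, dim on both NMuMG arrays, had a log2 change of -1.17 against -3.04. Id2, an inhibitor of helix-loop-helix factors and a classical BMP target, went from 9.07 to 6.23 (7.17-fold lower), with log2 changes of -1.55 in mProx, -1.43 in MCT and -0.13 in EpH4. Wfdc2, a secreted whey acidic protein family member, went from 9.56 to 6.89, while EpH4 kept levels of 12.20 and 12.16.

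**Figure D2:**
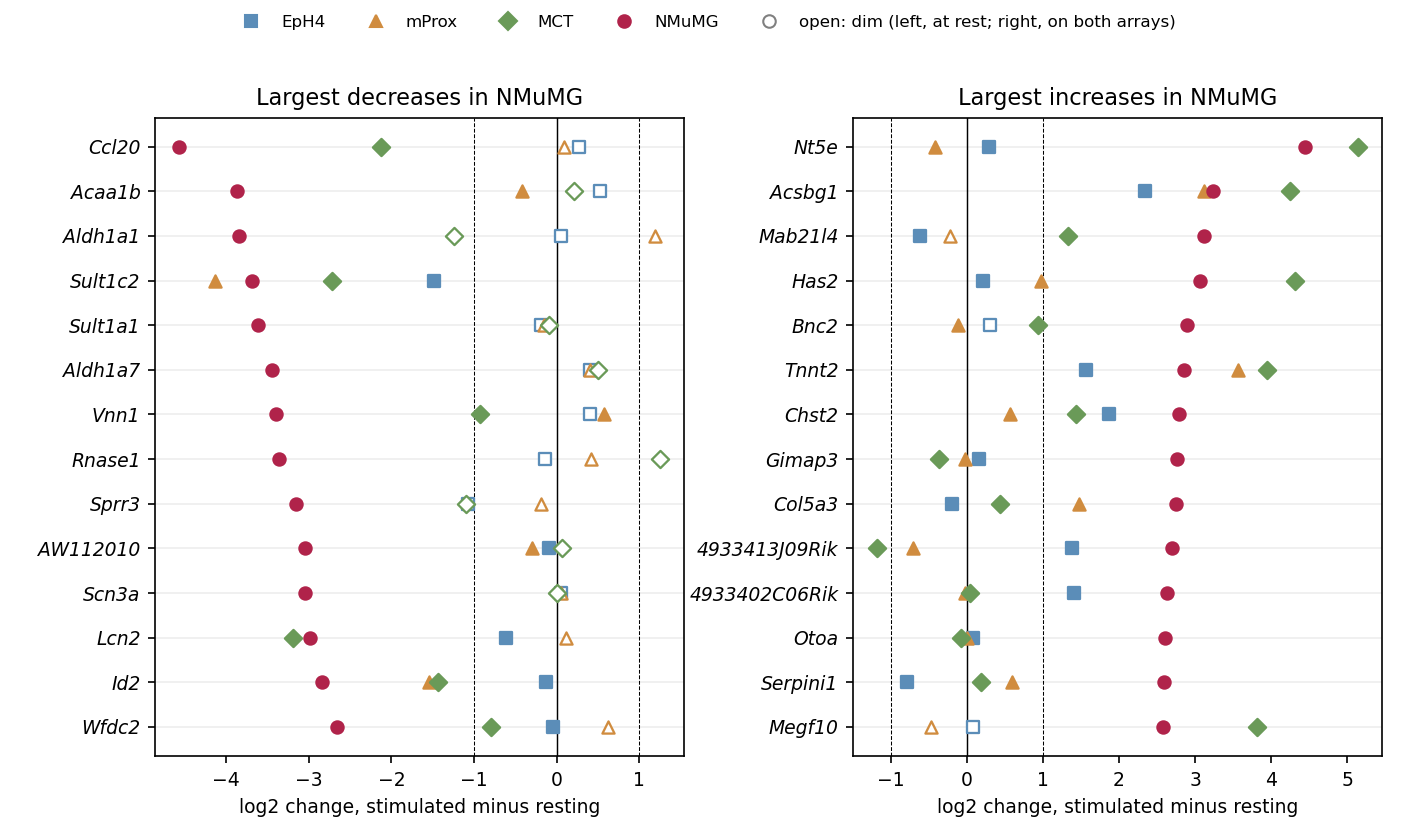
Log2 change (stimulated minus resting, horizontal) of the 14 genes with the largest decrease and the 14 with the largest increase in NMuMG, with the same genes in EpH4, mProx and MCT, 1 array pair each. Among the decreases most symbols of the other lines are open, since genes such as Aldh1a1, Aldh1a7, Sult1a1 and Scn3a were dim at rest there, while Sult1c2 was lower in all 4 lines.

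The promoters of the Sprr genes and of a pair of interferon-induced Ifit genes, all lower in NMuMG, are given as a description. Matches to known binding motifs are marked. AP-1, the Jun and Fos factor downstream of ERK, binds TGANTCA. Interferon-activated factors bind the interferon-stimulated response element, searched as a pair of GAAA blocks with 2 bases between. Snail and Zeb factors bind the E-box CAGGTG, and SMADs the palindrome GTCTAGAC. Both strands were searched, overlapping matches were all kept, and capitals mark every match. Each window runs from 250 bases before to 50 bases after the start of the gene, 5′ to 3′ on the gene's strand, from RefSeq on GRCm38.p6.
Sprr1a (chr3:92485832-92486131, minus strand): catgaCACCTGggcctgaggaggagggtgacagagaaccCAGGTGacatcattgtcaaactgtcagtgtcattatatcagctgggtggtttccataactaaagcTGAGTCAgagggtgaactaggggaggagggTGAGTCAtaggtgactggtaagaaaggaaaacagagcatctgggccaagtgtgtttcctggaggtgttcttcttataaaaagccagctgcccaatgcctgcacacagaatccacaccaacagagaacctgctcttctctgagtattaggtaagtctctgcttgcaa
Sprr1b (chr3:92438730-92439029, minus strand): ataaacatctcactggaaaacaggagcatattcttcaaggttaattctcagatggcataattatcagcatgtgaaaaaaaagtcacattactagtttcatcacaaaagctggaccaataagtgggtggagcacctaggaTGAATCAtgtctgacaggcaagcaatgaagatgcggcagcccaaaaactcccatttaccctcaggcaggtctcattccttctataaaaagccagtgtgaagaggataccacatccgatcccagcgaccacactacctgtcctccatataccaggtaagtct
Sprr2k (chr3:92432332-92432631, plus strand): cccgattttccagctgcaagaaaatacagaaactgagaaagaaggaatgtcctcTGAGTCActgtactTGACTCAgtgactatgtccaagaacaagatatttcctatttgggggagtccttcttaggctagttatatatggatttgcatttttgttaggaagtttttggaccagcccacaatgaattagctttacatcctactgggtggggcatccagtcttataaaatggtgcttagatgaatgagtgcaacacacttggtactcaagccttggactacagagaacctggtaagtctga
Sprr3 (chr3:92458671-92458970, minus strand): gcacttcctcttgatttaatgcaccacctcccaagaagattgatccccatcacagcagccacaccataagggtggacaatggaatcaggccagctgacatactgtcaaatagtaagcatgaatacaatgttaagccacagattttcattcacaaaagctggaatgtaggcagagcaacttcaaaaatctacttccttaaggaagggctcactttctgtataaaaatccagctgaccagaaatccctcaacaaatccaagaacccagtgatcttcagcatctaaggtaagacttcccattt
Ifit1 (chr19:34640639-34640938, plus strand): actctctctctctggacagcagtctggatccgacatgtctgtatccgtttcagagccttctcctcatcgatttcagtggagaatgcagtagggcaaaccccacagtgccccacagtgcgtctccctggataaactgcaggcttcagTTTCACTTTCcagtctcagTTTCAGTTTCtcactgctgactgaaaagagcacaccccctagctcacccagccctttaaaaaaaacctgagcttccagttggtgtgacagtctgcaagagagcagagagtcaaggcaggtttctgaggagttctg
Ifit3 (chr19:34583279-34583578, plus strand): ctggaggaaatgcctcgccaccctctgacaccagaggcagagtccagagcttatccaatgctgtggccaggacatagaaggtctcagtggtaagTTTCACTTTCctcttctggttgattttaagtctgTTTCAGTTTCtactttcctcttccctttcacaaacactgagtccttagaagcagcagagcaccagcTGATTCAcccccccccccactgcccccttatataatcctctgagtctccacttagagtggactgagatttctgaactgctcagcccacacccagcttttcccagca

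Sprr1a has 2 AP-1 matches and 2 E-boxes, Sprr1b 1 AP-1 match and Sprr2k 2, while Sprr3 has none of the 4 motifs in this window. Ifit1 and Ifit3 have 2 response-element matches each, and Ifit3 also 1 AP-1 match. Across genes, AP-1 matched 9.6% of the 178 windows of 2-fold lower genes, 7.5% of the 240 windows of 2-fold higher genes and 5.2% of the 9867 windows of all genes in the filter. The response-element core matched 9.0%, 3.8% and 2.8% of the same sets, and the E-box 20.8%, 22.1% and 17.6%. The SMAD palindrome was found in only 2 of the 240 windows of higher genes (0.8%), 0 of the 178 of lower genes and 21 of all 9867 windows (0.2%). These are matches of letters and were not tested.

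Nt5e had the largest increase, followed by Acsbg1, Mab21l4 and Has2. Nt5e, the cell-surface enzyme CD73 that makes adenosine, went from 3.71 to 8.15, 21.6-fold higher, and 2 further probe sets moved the same way. In MCT it went from 4.47 to 9.61, whereas it was already at 10.60 in resting EpH4 and 9.36 in resting mProx. Has2, a hyaluronan synthase, went from 4.50 to 7.56 (8.33-fold higher), and from 4.61 to 8.92 in MCT. Col5a3, a chain of fibrillar collagen V, went from 7.64 to 10.39 (6.71-fold higher), with log2 changes of 1.47 in mProx, 0.43 in MCT and -0.19 in EpH4.

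The integrin genes Itga5 and Itgb3, whose products bind fibronectin and vitronectin, were among the larger increases. Itga5 went from 6.38 to 8.86, 5.59-fold higher, with 2 further probe sets the same way, and its log2 changes were 0.93 in EpH4, 0.16 in mProx and -0.11 in MCT. Itgb3 went from 4.80 to 7.31, 5.73-fold higher, with a further probe set the same way. Its log2 change in MCT was 1.50, from a dim level, and it was dim on both arrays of EpH4 and mProx. Itgb8, a TGF-β activating integrin subunit, went the other way, from 6.93 to 4.97, and was also lower in MCT (-1.67) and mProx (-1.24).

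Tnnt2, a troponin of striated muscle, went from 7.03 to 9.88 (7.22-fold higher) and was higher in each other line, by log2 changes of 1.57 to 3.95. Acsbg1, an acyl-CoA synthetase, went from 4.81 to 8.04 (9.43-fold higher), with changes of 2.34 to 4.25 elsewhere. Mab21l4 went from 6.49 to 9.61 (8.70-fold higher), against a log2 change of 1.33 in MCT and of -0.61 in EpH4. Bnc2, a zinc finger protein of mesenchymal cells, went from 4.56 to 7.46 (7.45-fold higher), and was at 9.33 in resting mProx cells.

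Of 41 TGF-β/SMAD targets in the filter, 12 were at least 2-fold higher (29.3%), 1 was lower (2.4%) and 28 were within 2-fold. Over all genes in the filter, 2.74% were higher and 1.82% lower. The median log2 change of the list was 0.68 against 0.04 over all genes. The medians of the same list were 0.38 in EpH4, 0.51 in mProx and 0.79 in MCT. Members of this and the other lists passed the filter on their NMuMG levels alone, and a member that is dim in another line has little room to be lower there, so the medians of the other lines are given as values and not as a contrast. Ltbp2, a latent TGF-β binding protein family member of the matrix, went from 7.36 to 9.69 (5.03-fold higher). Il11, a cytokine of the IL-6 family, went from 5.07 to 7.18 (4.31-fold higher). Tagln, the actin-binding protein SM22, went from 8.19 to 10.29 (4.30-fold higher) and from 4.84 to 7.46 in mProx. Of the feedback genes of the pathway, Pmepa1 was 2.20-fold higher, and 2 further probe sets moved the same way, 1 of them by a log2 change of 1.97. Smad7 had a log2 change of 0.79, with 1.49 on a further probe set, and Skil one of 0.59. Adamts1, a metalloprotease of the ADAMTS family, was the 1 lower member (10.71 to 8.79).

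Of 24 mesenchymal markers, 8 were at least 2-fold higher (33.3%, against 2.74% of all genes) and 0 lower, with a median of 0.36. Among the transcription factors, Snai1 went from 6.72 to 8.39 (3.19-fold higher), against log2 changes of 0.42 in EpH4, -0.09 in mProx and 0.76 in MCT. Zeb2 went from 8.38 to 9.50 (2.18-fold higher), and its 3 further readable probe sets moved the same way. A dim one had a log2 change of -0.53, and the mean over all 5 was 0.95. Snai2 went from 6.12 to 7.50, but a brighter probe set, marked as able to cross-hybridise, went from 9.52 to 8.93. Zeb1 went from 10.97 to 10.86, and its 2 further readable probe sets had log2 changes of -0.91 and 0.27. Twist1 went from 7.35 to 8.02. Foxc2, a forkhead factor named after its values were seen, went from 7.12 to 8.41 (2.43-fold higher) and was at 3.52 to 3.82 on all arrays of the other lines. Cdh1, whose loss is the usual hallmark of the transition, went from 10.69 to 10.06, 1.54-fold lower, and Tjp1 and Ocln, of tight junctions, had log2 changes of -0.21 and -0.16, which turned positive on the signals as deposited.

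The classical products of the mesenchymal state that were high at rest stayed near their level. Vim went from 13.31 to 13.47, Cdh2 from 12.43 to 12.55 and fibronectin, Fn1, from 13.26 to 13.36. At rest, Fn1 was at 11.60 in mProx and 10.98 in MCT, where its log2 changes were 1.43 and 2.14. Of 28 junction and keratin genes, 2 were at least 2-fold higher (7.1%, against 2.74% of all genes) and 0 lower. These were Cldn4, a claudin of tight junctions (7.95 to 9.71), and Pkp1, a desmosomal plakophilin (9.08 to 10.24). The list has 46 genes with a probe set, of which 13 were dim on both NMuMG arrays. A filter on the mean of both arrays can drop a gene that was readable on 1 array only, so such losses or gains are not counted. Junction genes dropped in this way include Marveld3 (5.56 to 4.52) and Dsc2 (4.82 to 5.52).

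Of 48 collagen and matrix genes, 9 were at least 2-fold higher (18.8%) and 2 lower (4.2%), against 2.74% and 1.82% of all genes (median 0.30). Col1a1, a chain of collagen I, went from 5.74 to 7.72, and the matricellular genes Tnc (9.27 to 10.86) and Smoc1 (5.07 to 7.40) were higher too. Col6a1 (10.40 to 9.23) and Lamb2 (8.03 to 6.97) were the lower ones, both named after their values were seen and both under 2-fold on the signals as deposited. Of 33 actin and contractile genes 5 were higher (15.2%) and 0 lower. Among the higher ones was Palld, an actin cross-linker of stress fibres (11.20 to 12.27). Averaged over all their probe sets, Tnc (0.80) and Palld (0.58) were under 2-fold. Of 29 proteases and inhibitors, 5 were higher (17.2%) and 2 lower (6.9%). Adam12, a TGF-β responsive metalloprotease, went from 7.10 to 9.01.

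**Figure D3:**
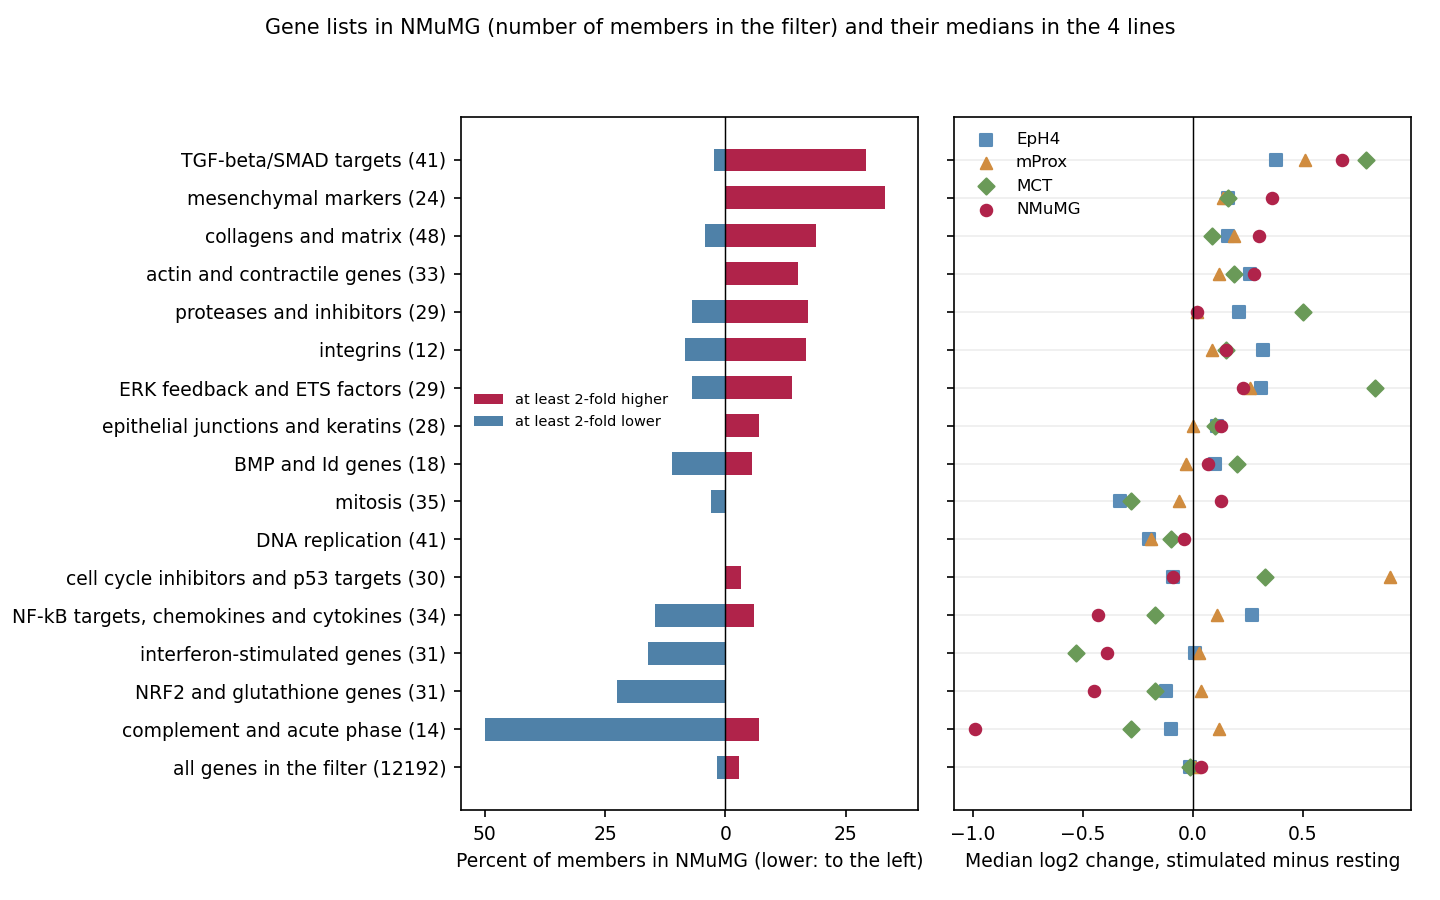
Left, percent of the members of 16 gene lists and of all genes that were at least 2-fold higher or lower in NMuMG, with the number of members in the filter. Right, median log2 change of the same members in the 4 lines, 1 array pair each. Higher members prevail in the TGF-β, mesenchymal, matrix and actin lists, and lower ones in the complement, NRF2, interferon and NF-kB lists, where 7 of 14 complement and acute phase genes were lower.

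Of 29 ERK feedback and ETS factor genes, targets of the branch that EGF feeds, 4 were at least 2-fold higher (13.8%) and 2 lower (6.9%). The shares over all genes were 2.74% and 1.82%. The median of the list was 0.23, beside 0.31 in EpH4, 0.26 in mProx and 0.83 in MCT. The ETS factor genes Etv4 (6.94 to 8.46) and Etv5 (6.88 to 8.37) and the phosphatase gene Dusp5 (7.05 to 8.46) were higher. Dusp6, the cytoplasmic ERK phosphatase, went from 10.51 to 10.27, a log2 change of -0.24 that was 0.13 on the signals as deposited. The other lines started lower and had log2 changes of 0.92 (EpH4, from 6.51), 2.44 (mProx, from 8.44) and 1.47 (MCT, from 8.63). The immediate-early gene Egr1 went from 10.23 to 8.44, and Spry1, a receptor kinase inhibitor, from 9.33 to 8.28. The call for Spry1 was lost on the signals as deposited and after median centring.

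Among 18 BMP and Id genes, 1 was at least 2-fold higher (5.6%) and 2 lower (11.1%), against 2.74% and 1.82% of all genes. Id1 stayed at 9.73 and 9.81 and Id3 at 7.21 on both arrays, whereas Id3 had a log2 change of -3.24 in mProx and -1.19 in MCT. Bmp4, a ligand, went from 9.53 to 8.14, and Grem1, a secreted BMP antagonist, from 5.42 to 6.88.

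Of 14 complement and acute phase genes in the filter, 7 were at least 2-fold lower (50.0%) and 1 higher (7.1%), with a median log2 change of -0.99. The shares over all genes were 1.82% lower and 2.74% higher. The NMuMG median was -0.57 when genes were filtered on all 8 arrays and -0.06 with no filter, as more dim members entered. The proteases of the C1 complex, C1s1 (10.57 to 8.18) and C1ra (10.04 to 8.65), were lower, and were lower also in mProx and MCT. Lbp, the lipopolysaccharide binding protein, went from 10.41 to 8.49, and Saa3, a serum amyloid A, from 11.35 to 9.59. Hp, haptoglobin, went from 8.91 to 7.58 and was at 3.66 to 3.74 on every array of the other lines. Crp, C-reactive protein, no member of the list and named after its values were seen, went from 8.71 to 6.96. Cfi, complement factor I, was the higher one (5.06 to 7.09).

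Of 34 NF-kB targets, chemokines and cytokines, 5 were at least 2-fold lower (14.7%) and 2 higher (5.9%), against 1.82% and 2.74% of all genes. The median of the list was -0.43 in NMuMG, 0.27 in EpH4, 0.11 in mProx and -0.17 in MCT. Ccl20, Lcn2 and Saa3 lead it, and the last 2 also stand in the acute phase list. Ptgs2, the inducible cyclooxygenase, was higher (8.96 to 10.38), as it was in mProx and MCT.

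Of 31 interferon-stimulated genes, 5 were at least 2-fold lower (16.1%, against 1.82% of all genes) and 0 higher. The median was -0.39, beside -0.53 in MCT, 0.01 in EpH4 and 0.03 in mProx. Ifit1, an RNA-binding antiviral protein, went from 8.39 to 6.54 (3.61-fold lower). Ifit3 went from 6.96 to 5.19, and from 11.38 to 8.07 in mProx. Igtp, an interferon-induced GTPase, went from 6.55 to 4.69, while it was at 8.16 to 9.36 on all arrays of the other lines. Ifit2 (10.87 to 9.84) and Rtp4 (8.46 to 7.10) were less than 2-fold lower on the signals as deposited. Tap2, the peptide transporter of antigen presentation, went from 6.54 to 4.66, with log2 changes of 0.04, 0.31 and -0.25 in EpH4, mProx and MCT.

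Of 31 NRF2 and glutathione genes, 7 were at least 2-fold lower (22.6%, against 1.82% of all genes) and 0 higher, with a median of -0.45. The list has 37 genes with a probe set, of which 5 were dim on both NMuMG arrays and had no change to read. Gclc, the catalytic subunit of the rate-limiting enzyme of glutathione synthesis, went from 11.34 to 9.69 (3.12-fold lower), and a further probe set moved the same way. Its log2 changes elsewhere were -0.31 in EpH4, -0.11 in mProx and -0.65 in MCT. Gstm1, a glutathione transferase, went from 11.04 to 9.23, with 3 further probe sets the same way, and was lower in mProx (-1.45) and MCT (-1.62) as well. Osgin1, an oxidative stress response gene, went from 10.22 to 9.09 while each other line had a small increase of 0.21 to 0.59. On the signals as deposited, 3 members of the list in place of 7 were 2-fold lower. On that scale the medians of the complement, NF-kB, interferon and NRF2 lists were -0.89, -0.16, -0.12 and -0.10, against 0.35 over all genes.

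The median level of 35 mitosis genes was 7.09 in resting and 7.27 in stimulated NMuMG, against 9.36 to 10.51 in the other resting lines. Of 41 DNA replication genes none was 2-fold changed in NMuMG, with median levels of 8.08 and 8.05 there and of 9.11 to 10.63 in the other resting lines. Plk1, a mitotic kinase, went from 7.12 to 6.08 and was the 1 mitosis gene past 2-fold (2.9%, against 1.82% of all genes lower). The call was lost on the signals as deposited and after median centring. It was also lost with quantile normalization over the NMuMG arrays alone and with an offset of 32. The cell cycle inhibitor Cdkn1a, p21, had a log2 change of -0.44 in NMuMG and of 2.00 in mProx. Cdkn2b, p15, a textbook TGF-β target, was at 11.63 and 11.78 in NMuMG, while it went from 9.02 to 10.57 in mProx and from 9.20 to 10.58 in MCT. Myc went from 10.53 to 10.74.

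Of 9 fibroblast markers in the filter 1 was higher, Col1a1 (11.1%, against 2.74% of all genes), and of 8 endothelial markers 0 were 2-fold changed. Of 11 leukocyte markers 2 were lower, Cd14 (11.09 to 9.81), a lipopolysaccharide co-receptor that epithelial cells can express, and Cd3e (6.02 to 4.84), both under 2-fold on the signals as deposited. That is 18.2%, against 1.82% of all genes. Summed over the list, leukocyte markers had a signal of 2182 at rest and 1499 after stimulation on the deposited scale. Such sums are weighted to bright members such as Cd14. By any size, 6 of the 11 leukocyte markers were higher and 5 lower, with a median log2 change of 0.08. Of 6 adipocyte markers 1 was 2-fold lower (16.7%, against 1.82% of all genes), the bright Plin4, and the sum over the list went from 1129 to 523. By any size, 2 of the 6 were higher and 4 lower (median -0.34). Of 10 proximal tubule markers 1 was lower (10.0%, against 1.82%), the membrane peptidase gene Mme (8.21 to 7.11), and the sum was 1177 and 1191. The part of these markers in the changes was not tested.

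The changes of NMuMG were compared with those of the other lines by size. Over all 12192 genes, 1.33% were 2-fold higher in EpH4, 2.93% in mProx and 2.85% in MCT, 93.8% were so in none of these lines, and 14 genes (0.115%) in all 3. Of the 334 higher genes, 228 (68.3%) were not 2-fold higher in any other line, and 7 were so in all 3. The 64 genes shared with MCT were 19.2% of the NMuMG genes and 18.4% of the MCT genes. For mProx the 46 shared genes were 13.8% and 12.9%, and for EpH4 the 32 were 9.6% and 19.8%. Lower by 2-fold were 1.18% of all genes in EpH4, 2.33% in mProx and 2.5% in MCT, with 94.6% in none of these lines and 4 genes (0.0328%) in all 3. Of the 222 lower genes, 148 (66.7%) were 2-fold lower in no other line and 2 in all 3. With EpH4, the other mammary line, 8 were shared, 3.6% of the NMuMG and 5.6% of the EpH4 genes, against 47 with MCT (21.2% and 15.4%) and 44 with mProx (19.8% and 15.5%).

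A stricter reading asked for a gene at least 2-fold changed in NMuMG and under 0.5 log2 the same way in each other line. This held for 139 higher genes (1.14%) and 79 lower genes (0.648%). Of the 79, only 38 were readable at rest in all 3 other lines, and 14 were dim at rest in every one, so that they had no decrease to show. Of the 139, 56 were dim on the resting NMuMG array, and 24 reached a level of 8 on the stimulated one. Other readable probe sets moved the same way for 23 of 38 higher genes (60.5%) and 14 of 19 lower genes (73.7%). The share was 51.5% over all genes with another probe set, 78.8% over all 2-fold higher genes and 85.5% over all 2-fold lower genes.

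Among the lower genes of this kind, Depp1 went from 9.36 to 7.04 in NMuMG and from 6.08 to 7.31 in MCT. Pdzrn3, a ubiquitin ligase with PDZ domains, went from 7.89 to 5.28, and in EpH4 from 7.59 to 8.87 and in MCT from 6.81 to 7.73. A dim probe set of Pdzrn3 moved the other way, by 0.75, and the mean of the pair was -0.93. Echdc2, a mitochondrial hydratase family member, went from 7.88 to 6.22 while EpH4 (7.62 to 7.57), mProx (8.41 to 8.07) and MCT (7.81 to 7.84) stayed near their level. Ssbp2, a single-stranded DNA binding protein, went from 10.91 to 9.27, and its 3 further probe sets moved the same way.

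By the size of the gap to the other lines, the higher genes of this kind with no readable probe set going the other way were led by Gimap3 (4.28 to 7.04), Otoa (4.07 to 6.68) and Myrip (5.72 to 7.88), with a single probe set each. Gimap3 and Otoa were dim in resting NMuMG, whereas on all arrays of the other lines they were at 6.47 to 6.89 and 5.95 to 6.27. Ctse, the aspartic protease cathepsin E, went from 6.15 to 8.08 with a further probe set the same way, against log2 changes of -0.17 to 0.20.

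Brighter genes of this kind, named after their values were seen, are easier to read. Creb3l1, a membrane-bound factor of the secretory pathway that supports collagen production, went from 8.62 to 10.01 (2.62-fold higher), while EpH4 (6.31 to 6.23), mProx (5.78 to 5.83) and MCT (5.47 to 5.61) did not move by more than 0.15. Fstl1, a secreted glycoprotein that modulates BMP and TGF-β signals, went from 8.93 to 10.19 with a further probe set the same way. Fstl1 was at 11.76 and 11.56 in mProx and dim in EpH4. Nectin3, an adhesion molecule of adherens junctions, went from 8.84 to 9.97, with 4 further probe sets the same way, but was 0.90 higher over the mean of its probe sets. Zdhhc2, a palmitoyl transferase, went from 7.81 to 9.05 with 3 further probe sets the same way.

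**Figure D4:**
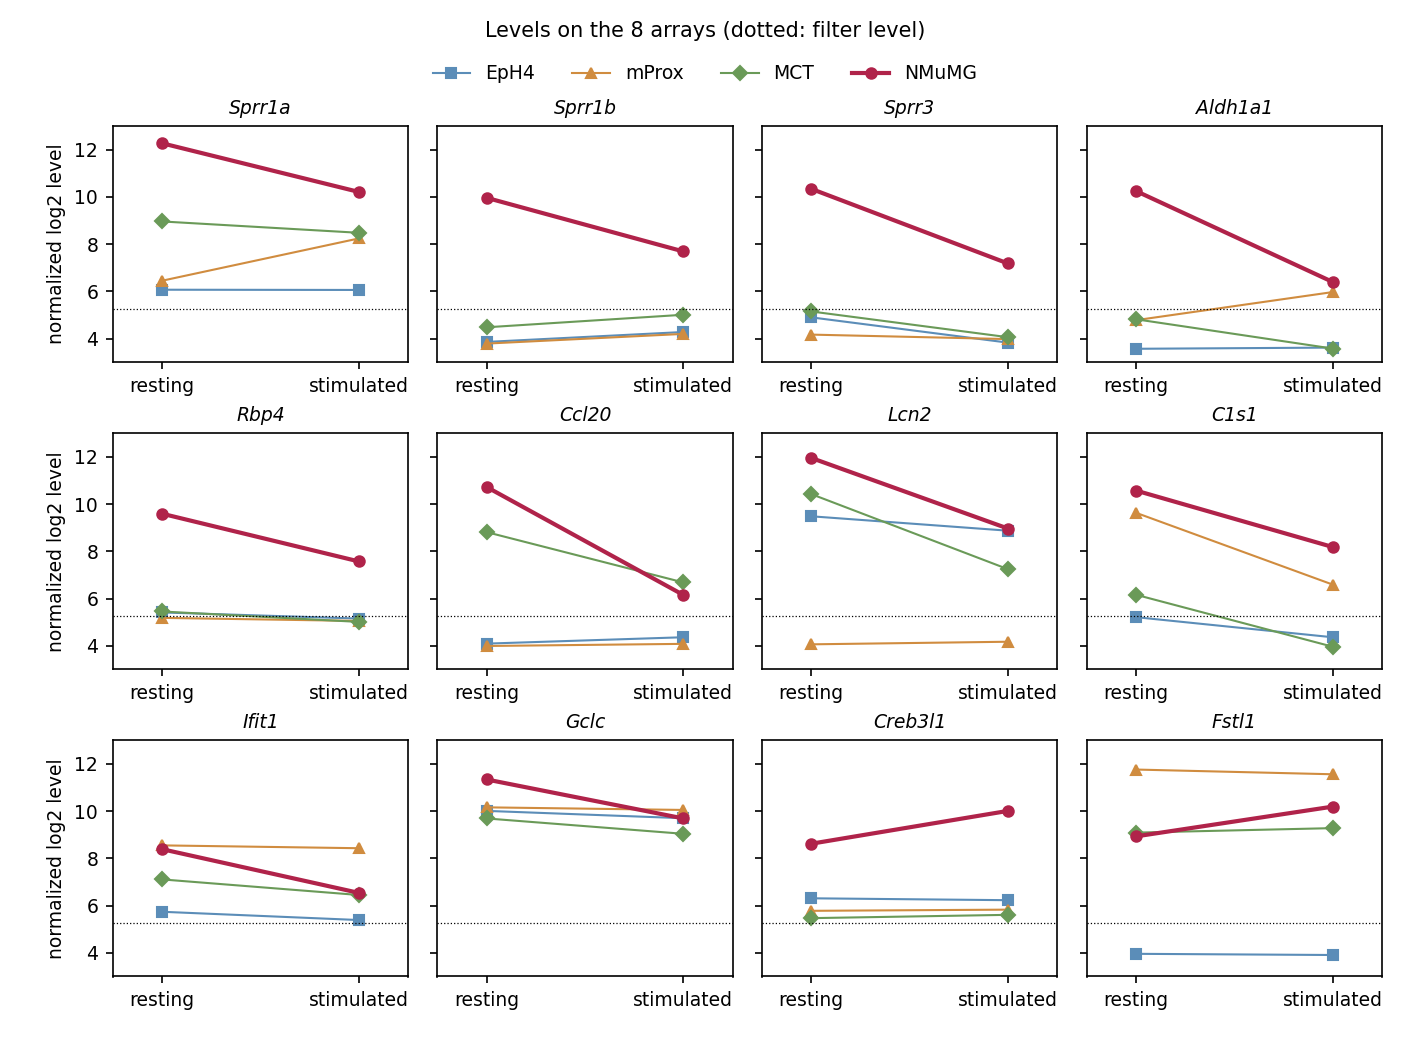
Normalized log2 levels of 12 genes on the resting and stimulated array of each of the 4 lines, with the filter level of 5.27 dotted. Sprr1b, Sprr3 and Rbp4 lie near or under the filter level in the other lines, while Gclc, Lcn2 and C1s1 were measured in several lines, and Creb3l1 and Fstl1 were higher after stimulation in NMuMG.

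The difference of the NMuMG change from the mean change of the other 3 lines was tested with limma across all 12192 genes, with the lines as blocks and NMuMG assumed to vary like the others. It called 0 genes (0.0%) at an adjusted p under 0.05, the smallest adjusted p being 0.756, and 638 genes had an unadjusted p under 0.05. The largest moderated t each way belonged to genes that did not pass. Gimap3 differed by 2.83 ± 0.41 (SE), Cyb5d2 by 2.22 ± 0.36 and Otoa by 2.61 ± 0.43, and on the lower side Acaa1b by -3.97 ± 0.58 and Aldh1a7 by -3.89 ± 0.58. At rest, Acaa1b was dim in EpH4 (4.49) and MCT (4.73) and at 5.77 in mProx, and Aldh1a7 was dim in each other line. These lines had little or no room to show a decrease of either gene. Another probe set of Cyb5d2 had a log2 change of -1.18 in NMuMG. Without MCT the same limma test called 4 genes, Ccl20, Mab21l4, Nt5e and Vnn1, with a smallest adjusted p of 0.00695, and each of these had moved in MCT in the direction of NMuMG. So no change of NMuMG is shown by this test to differ from the other 3 lines together.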

How the data were processed

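Total RNA of each group was labelled with biotin and hybridised to the Affymetrix Mouse Genome 430 2.0 array, 1 array per line and condition. The deposited values are linear intensities, 1 per probe set, and per the submitters' processing notes the authors made them with MAS5. Neither version nor scaling of MAS5 is given in the sources used here. From these intensities, 64 control probe sets were left out, 10.6 (the 25th percentile of positive signals) was added, log2 was taken and the 8 arrays were quantile-normalized, which removes any change in the overall distribution. The offset understates changes of dim genes.

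Of 45037 probe sets, 34945 have 1 gene symbol in the platform annotation, 932 several and 9160 none. Each gene is represented by its probe set of highest mean over the 8 arrays, avoiding those marked as cross-hybridising where another exists, and keeps it under each alternative but the mean of probe sets. The difference test used limma 3.58.1 in R 4.3.3 (line block, stimulation, NMuMG by stimulation, intensity trend, Benjamini-Hochberg threshold 0.05). With 2 residual degrees of freedom among arrays, its p-values reflect how the lines differ, not how cultures of 1 line vary.

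Members, gene lists and rules were chosen with earlier results of these data known. Named genes are the 14 largest changes each way whose probe sets agree, 14 each way of largest gap among those not shared by the other lines, the 5 each way of largest moderated t where none passes, a panel, and up to 6 members of each of 33 gene lists with the largest change. Marker genes named as dim come from those lists. The lists not described one by one in the report had at most 3 members 2-fold higher and at most 2 lower. Promoter windows were matched by symbol for 9867 of 12192 genes. Alternatives were median centring, no normalization, quantile normalization over the 2 NMuMG arrays alone, offsets of 1 and 32, other filters, the mean of a gene's probe sets, a looser definition of shared, no intensity trend, and each other line left out. All 8 columns of the table were used.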

Additional observations from a re-analysis of the deposited data

Results flagged for a closer look

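NMuMG moved at least 2-fold one way and EpH4, mProx and MCT each moved the other way in 14 higher and 5 lower genes readable in all 4 lines. They stand among 99 higher and 38 lower not shared genes that were readable in all 3 other lines. The share of all genes with such signs was not counted, so these counts are not read as a result about the genes. Many of the opposite changes were small. All those of Cyb5d2 and Myzap were under the pooled SD of 0.38 between probe sets of a gene in NMuMG. The 8 opposed genes that the rules for named genes pick are given here. The opposition itself was not tested, since each line has 1 array pair, and none of the 8 passed the limma test of the difference from the other lines (adjusted p of 0.756 to 0.882). Higher in NMuMG were Myrip, a myosin VIIa and Rab interacting protein (log2 change 2.16, against -0.90 to -0.17), Popdc2 (1.98, against -0.50 to -0.17), Cyb5d2 (1.98, against -0.30 to -0.12), Myzap (1.70, against -0.36 to -0.24) and Fuom, a fucose mutarotase (1.18, against -0.67 to -0.47). Popdc2, Cyb5d2 and Fuom were dim in resting NMuMG and at 6.39, 6.53 and 6.13 after stimulation. On the arrays of the other lines they were at 5.77 to 6.41, 6.42 to 7.63 and 6.33 to 9.44. Another probe set of Cyb5d2 moved the other way in NMuMG, with a log2 change of -1.18. Lower in NMuMG were Vat1l (-1.22, against 0.17 to 0.76), Car14, a membrane carbonic anhydrase (-1.21, against 0.23 to 0.94), and Osgin1 (-1.13, against 0.21 to 0.59). With the offset added but no normalization between arrays, the log2 changes were -0.97 for Car14, -0.86 for Vat1l and -0.81 for Osgin1, each under 2-fold.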

How the results depend on the processing

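Of the 334 higher, 222 lower, 139 not shared higher and 79 not shared lower genes, the counts were 588, 99, 333 and 21 on the signals as deposited, 714, 472, 324 and 200 with no filter, and 102, 111, 24 and 39 for a brighter NMuMG array at 8 or more, an alternative chosen after seeing the data. With an offset of 32, 192 were higher and 73 not shared higher, with both NMuMG arrays at or above the filter level (also chosen after seeing the data) 212 and 83, and after median centring 50 were not shared lower. With shared set at 1.0 log2, 228 higher and 148 lower genes were not shared. Leaving out 1 other line gave 165 to 179 not shared higher and 89 to 123 not shared lower genes, most of the latter without MCT, and 0 to 4 genes in the limma difference test, where 4 passed without MCT and 0 otherwise. Of 150 named genes at least 2-fold changed, 100 stayed so under all 8 alternatives, and none changed sign. Those of the 8 that alter only the filter leave a gene's value as it is, so they could not move a call. No paired analysis was possible because each line has 1 array per condition, and the line itself is already the block in the limma test. With 1 array a side, neither array nor culture variation can be told apart from the response, and signals near background limit what dim genes can show. The causes of these differences were not tested.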
